A study of Mus musculus with 4 samples.

Results

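Clustered Zfp genes, zinc finger genes that lie next to each other on the mouse autosomes, were described by dimethylation of histone H3 at lysine 79 (H3K79me2) over their gene bodies. Members were autosomal protein-coding genes of the RefSeq table (assembly GRCm38.p6, the same as mm10) whose symbol is Zfp followed by a number and whose nearest edge lies within 100 kb of another such gene. There were 222 of them, out of 388 autosomal genes with such a symbol and 20661 autosomal coding genes in all. They formed 50 clusters of 2 to 23 genes, and the other 166 genes with such a symbol are called unclustered. The rule used names and positions and no measured value. Just inside the distance limit lay Zfp972 (97.6 kb from its neighbour, peaks over 4.55% of its body with DMSO and 7.61% with the SCD1 inhibitor), Zfp605 and Zfp932 (97.8 kb). Just outside lay Zfp715 and Zfp936 (104 kb), with 10.8% and 64.6% and with 35.1% and 2.49%.

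The mark was mapped by ChIP-seq in double negative thymocytes of C57BL/6 mice that had reached the DN3 stage in vitro. Both groups were raised from haematopoietic stem cells with Flt-3L and IL-7 on OP9-DL1, stromal cells that present a Notch ligand. The control group received DMSO and the inhibitor group A939572, which blocks SCD1, the desaturase that makes oleic acid, and their peak lists are called the DMSO and the A939572 list. The design compares H3K79me2 with and without that block. Each group had 1 ChIP library, so differences have no replicate check, no p-value was computed, and condition and library cannot be told apart.

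Zinc finger proteins of this class bind DNA through tandem C2H2 fingers, each of which reads a few bases. Many carry a KRAB domain, which recruits the co-repressor TRIM28 and the methyltransferase SETDB1 to place H3K9me3, and many silence retrotransposons in this way. Their genes multiplied by tandem duplication, which left arrays of similar copies. H3K79me2 is laid down by DOT1L as genes are transcribed, with most of it towards the 5′ end.

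The DMSO list held 124962 peaks, of which 804 (0.643%) had a q of at most 0.05, and the A939572 list 35018 peaks, of which 6528 (18.6%) did. Such peaks are called strong and all others weak. The lists covered similar lengths, 235 and 234 Mb, but strong peaks covered 11.1 Mb in the DMSO and 153 Mb in the A939572 list. This gap in peak strength runs through the whole series and moves with every difference given here, and its part in them was not tested. Read depth is unknown. Of 15 DN3 thymocyte marker genes, 9 were covered over at least 50% of the body in the DMSO list and 13 in the A939572 list. None of 6 B cell or 6 myeloid markers was covered that far in either list. Of 8 stromal markers, 4 held no peak in either list and only Thbs1 passed 50%, with 11.8% in the DMSO and 59.0% in the A939572 list, where its peaks included strong ones. Pdgfrb had 9.18% and 45.3%. The part of stromal cells in the results was not tested.

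H3K79me2 peaks covered more of the clustered Zfp genes in the A939572 list than in the DMSO list. A gene is called marked where peaks cover at least 50% of its body. The DMSO list marked 10 of the 222 members (4.50%, 95% Wilson interval 2.46 to 8.09) and the A939572 list 73 (32.9%, 27.0 to 39.3). Over all autosomal coding genes these shares were 5.73% and 27.0%. The interval covers counting error over genes only, and neighbouring genes are not independent. Of the members, 8 were marked in both lists, 65 in the A939572 list alone and 147 in neither. Zfp54 and Zfp985 were marked in the DMSO list alone. Over all 20661 genes, 939 were marked in both, 4640 in the A939572 list alone, 14838 in neither and 244 in the DMSO list alone.

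The A939572 list exceeded the DMSO list by at least 25 points of covered percent for 94 members (42.3%, against 31.0% of all genes) and fell short of it by at least 25 points for 11 (4.95%, against 3.24%). The other 117 lay between these limits. The median covered percent of the members was 10.9% in the DMSO list and 29.8% in the A939572 list. The median difference was 17.0 points, and 0 points over all genes. In all, 144 members had the higher value in the A939572 list, 52 had the lower value there, and 26 held no peak in either list. Over all 20661 genes, 9273 were higher, 5115 were lower and 6223 held no peak in either list. The number of members touched by any peak was close, 167 (75.2%) in the DMSO and 164 (73.9%) in the A939572 list. The shares of all genes, 57.4% and 53.0%, were close to each other as well. Only 135 members were touched in both lists (8376 of all genes), so the touched members were in part different ones. The lists thus differed in how far peaks ran along the members more than in the number of members touched.

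With strong peaks alone the counts were smaller in both lists. No member was marked in the DMSO list, against 1.38% of all genes. The upper Wilson bound of that 0 is 1.701%, and 3 counts of 222 would be 1.35%, so a share like that of all genes lies within the Wilson interval. In the A939572 list 47 members were marked (21.2%, interval 16.3 to 27.0), against 20.3% of all genes. The inhibitor value was at least 25 points higher for 76 members (34.2%, against 27.2%), and 0 members were at least 25 points lower (0% of all genes). The members' share was above that of all genes with all peaks but below it under stricter limits. At a −log10 q of at least 5, 17 members (7.66%) and 11.5% of all genes were marked in the A939572 list. At a fold enrichment of at least 3 these shares were 9.01% (20 members) and 11.04%.

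**Figure D1:**
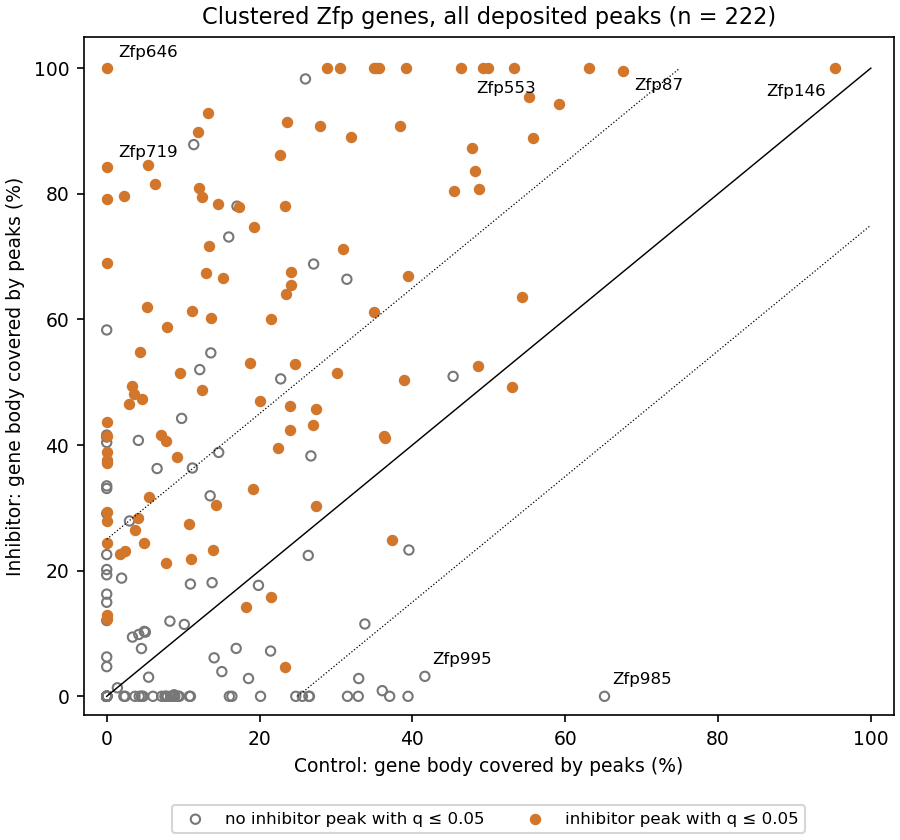
Covered percent of the gene body of each of the 222 clustered Zfp genes in the DMSO list (x axis) and the A939572 list (y axis), all peaks, with 1 point per gene, filled where the gene holds an inhibitor peak with q of at most 0.05. The solid line marks equal values and the dotted lines 25 points above and below, and the 94 genes above the upper line face 11 below the lower one.

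**Figure D2:**
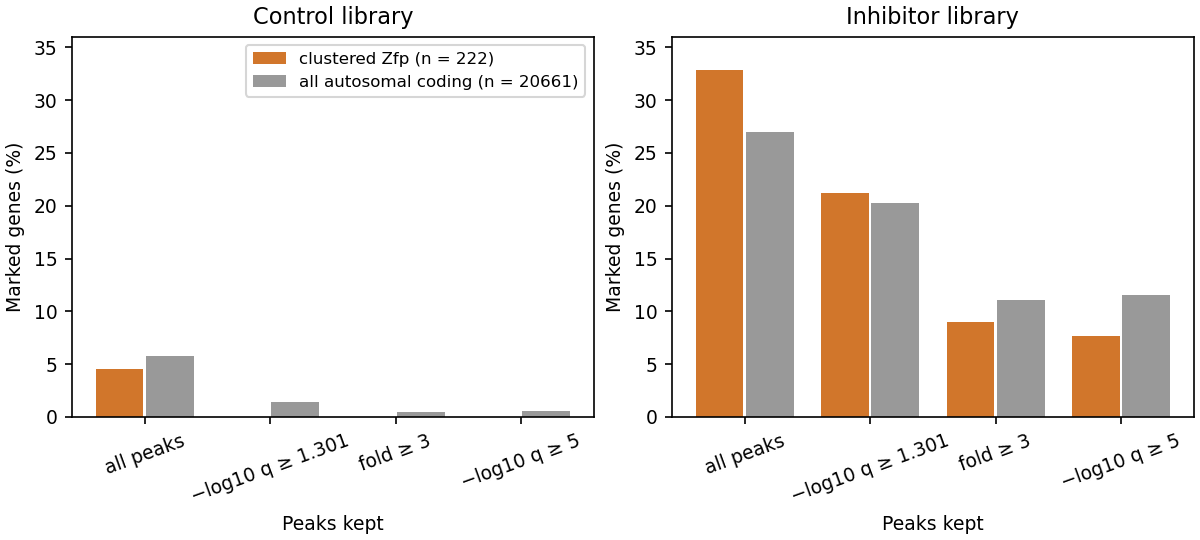
Percent of genes marked (peaks over at least 50% of the body) in each list as the peaks kept become stricter, for clustered Zfp genes and all autosomal coding genes. In the A939572 list clustered genes go from 32.9% with all peaks to 7.66% at a −log10 q of at least 5, and all genes from 27.0% to 11.5%.

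The unclustered Zfp genes had higher marked shares than the clustered ones. The DMSO list marked 18 of 166 (10.8%, interval 6.97 to 16.5) and the A939572 list 73 (44.0%, 36.6 to 51.6). With strong peaks these counts were 5 (3.01%) and 54 (32.5%). Their medians were 7.82% in the DMSO and 40.3% in the A939572 list, a median difference of 22.5 points. A difference of 25 points or more towards the DMSO list occurred for 1 unclustered gene (0.602%) and for 11 clustered genes. A strong control peak lay over 12 unclustered genes (7.23%), over 1 clustered gene (0.450%) and over 4.04% of all genes.

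The promoters of 5 members with differing coverage are printed here, chosen after their values had been seen. They are examples and not the 5 most extreme members. Each sequence is the RefSeq promoter window of GRCm38.p6 from 250 bases before to 50 bases after the gene's start, 5′ to 3′ on the gene's strand, with CpG dinucleotides in capitals. Zfp553 lies on chr7:127232811-127233110 (plus strand) and is the only member with a strong control peak. Zfp719 on chr7:43579336-43579635 (plus) had no control peak and a strong inhibitor peak over the whole window. Zfp748 on chr13:67553103-67553402 (minus) lies in the largest cluster. Zfp985 on chr4:147553027-147553326 (plus) and Zfp995 on chr17:21909877-21910176 (minus) had weak control peaks over the whole window and no inhibitor peak there. The windows hold 23, 11, 15, 6 and 3 CpG dinucleotides, in this order.
Zfp553: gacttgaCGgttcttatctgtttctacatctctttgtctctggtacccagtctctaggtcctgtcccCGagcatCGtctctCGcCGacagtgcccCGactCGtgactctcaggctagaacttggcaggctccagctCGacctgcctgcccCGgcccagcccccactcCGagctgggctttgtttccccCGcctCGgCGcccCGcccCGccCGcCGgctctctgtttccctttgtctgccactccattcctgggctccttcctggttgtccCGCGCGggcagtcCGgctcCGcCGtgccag
Zfp719: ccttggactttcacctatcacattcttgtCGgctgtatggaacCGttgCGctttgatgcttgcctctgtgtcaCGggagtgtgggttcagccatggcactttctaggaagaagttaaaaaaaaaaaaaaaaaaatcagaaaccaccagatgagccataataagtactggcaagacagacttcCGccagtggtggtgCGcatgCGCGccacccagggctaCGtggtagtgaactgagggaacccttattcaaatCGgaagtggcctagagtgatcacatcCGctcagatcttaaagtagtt
Zfp748: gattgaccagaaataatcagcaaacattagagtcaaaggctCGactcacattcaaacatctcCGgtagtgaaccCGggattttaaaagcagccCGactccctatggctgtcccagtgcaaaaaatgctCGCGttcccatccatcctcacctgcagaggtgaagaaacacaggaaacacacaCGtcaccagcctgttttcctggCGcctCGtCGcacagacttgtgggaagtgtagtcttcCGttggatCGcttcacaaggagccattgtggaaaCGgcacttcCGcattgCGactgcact
Zfp985: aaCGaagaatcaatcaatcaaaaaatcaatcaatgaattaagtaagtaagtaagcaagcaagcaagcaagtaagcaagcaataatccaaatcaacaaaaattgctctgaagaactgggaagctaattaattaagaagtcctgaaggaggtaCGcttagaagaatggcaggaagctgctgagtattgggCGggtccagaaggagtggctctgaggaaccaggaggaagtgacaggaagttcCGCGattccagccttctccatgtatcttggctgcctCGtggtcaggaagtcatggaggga
Zfp995: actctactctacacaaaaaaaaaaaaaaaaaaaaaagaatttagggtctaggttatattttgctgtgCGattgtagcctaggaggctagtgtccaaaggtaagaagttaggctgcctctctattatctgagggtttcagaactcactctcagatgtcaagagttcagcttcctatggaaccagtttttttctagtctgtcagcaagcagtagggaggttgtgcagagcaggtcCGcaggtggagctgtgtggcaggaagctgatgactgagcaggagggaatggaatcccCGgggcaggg

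Zfp553 (chromosome 7, 127233061 to 127238197), whose CpG-rich promoter is printed first, had 46.4% of its body covered in the DMSO and 100% in the A939572 list. Its control peak was 5.75 kb wide with a mean fold of 2.098 over background and reached a −log10 q of 1.98. The inhibitor peak was 13.4 kb wide, 3.64-fold over background, and its −log10 q was 11.1. Zfp719 (chromosome 7, 43579559 to 43593710) held no control peak, and in the A939572 list 84.2% of it was covered by peaks of which the best was 11.2 kb wide with a fold enrichment of 2.35. Zfp748 (chromosome 13, 67538641 to 67553152) went from 35.2%, in 1 weak peak, to 100% in 1 peak of 16.3 kb with a −log10 q of 9.81. Zfp985 (chromosome 4, 147553277 to 147585201) was covered over 65.1% in the DMSO list, with a highest −log10 q of 0.20, and held no inhibitor peak. Zfp995 (chromosome 17, 21878907 to 21910085) was covered over 41.6% and 3.18%, by weak peaks in both lists.

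Among all 192 members with a promoter in the table, an inhibitor peak touched 70 promoters (36.5%, against 32.1% of all genes) and a control peak 27 (14.1%, against 8.70%). Strong inhibitor peaks touched 56 (29.2%, near the 27.6% of all genes) and strong control peaks 1 (0.521%, against 1.65%). The 59 promoters touched in the A939572 list alone had a median of 14 CpG dinucleotides, and the 16 touched in the DMSO list alone a median of 8. The 11 touched in both had a median of 12, and those touched in neither a median of 10. Member promoters had a median of 11 CpG dinucleotides, against 14 over all genes and 17 over unclustered Zfp genes. Of members with 0 to 7 CpG dinucleotides, 9 of 48 were marked in the A939572 list, against 7.97% of all genes in that range. With 8 to 14 the count was 31 of 75 (25.2% of all genes), and with 15 or more it was 23 of 69, against 43.3% of all genes. The marked share of members thus did not rise from the middle to the upper band, while that of all genes did. Unclustered Zfp genes shared this, with 14 of 25 (56%) marked at 8 to 14 CpG dinucleotides and 40 of 83 (48.2%) at 15 or more. The contrast did not hold for differences of at least 25 points towards the A939572 list. Between the same bands that share went from 41.3% to 49.3% of members and from 30.9% to 49.5% of all genes. For unclustered Zfp genes it went from 64% to 51.8%. Spearman's rho between CpG number and covered percent in the A939572 list was 0.18 over the 192 members, 0.17 over 133 unclustered Zfp genes and 0.51 over 16456 genes. These are descriptions across genes of 1 library, which share its depth and whose base composition varies together.

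Along the gene, inhibitor peaks lay over the 5′ part of the members. The bodies of the 192 members with a known strand were cut into 10 equal segments from 5′ to 3′. Inhibitor peaks covered a mean of 51.3% of the first segment, 54.5% of the next and 13.98% of the last. Control peaks covered 20.2%, 22.4% and 14.02% of the same segments. The A939572 list had the higher mean in every segment but the last. The gap was widest near the 5′ end, and in segment 7 the means were still 31.5% and 14.3%. Over all genes inhibitor peaks covered 37.8% of the first and 16.7% of the last segment, and control peaks 16.3% and 7.71%. Unclustered Zfp genes had 58.6% and 24.2% in the A939572 list, a fall of similar size, and these profiles were not tested against each other.

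**Figure D3:**
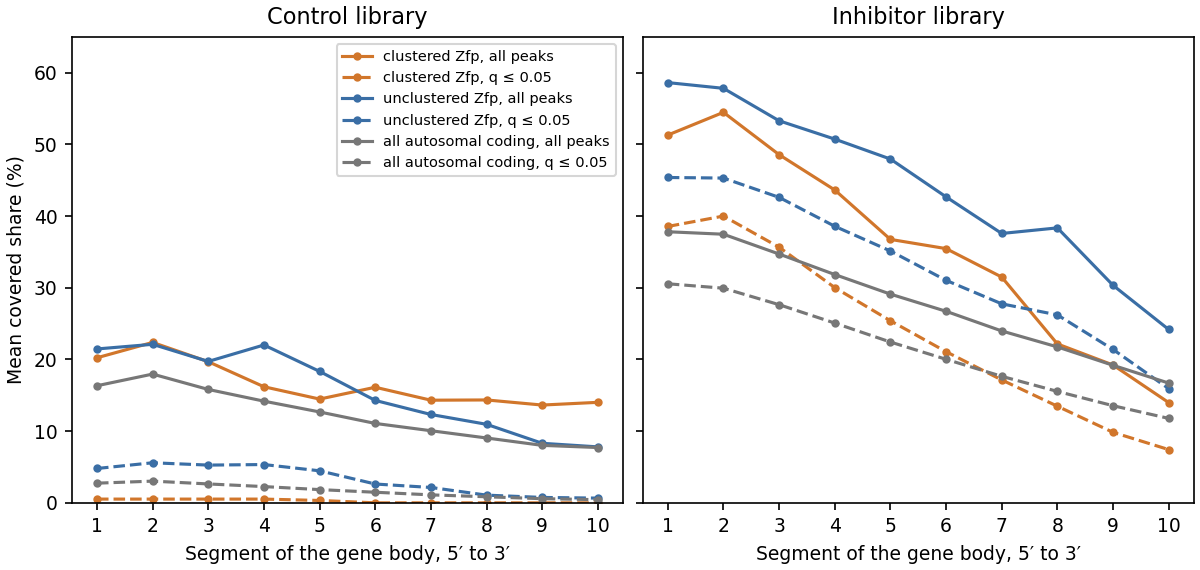
Mean covered percent of each of 10 equal segments of the gene body from 5′ to 3′ in the DMSO and A939572 lists, for clustered Zfp genes (192 with a known strand), unclustered Zfp genes and all coding genes, with solid lines for all peaks and dashed lines for strong peaks. With all peaks, clustered genes in the A939572 list fall from 51.3% in the first segment to 13.98% in the last, and in the DMSO list from 20.2% to 14.02%.

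Within the clusters, inhibitor peaks lay over gene bodies more than between them. Member bodies made up 4.90 Mb of the cluster spans and the sequence between them 3.83 Mb. Inhibitor peaks covered 29.2% of the bodies and 7.52% of the sequence between. Control peaks covered 16.9% and 10.6%, so the DMSO list covered more than the A939572 list between the genes and less over them. Strong inhibitor peaks covered 19.1% of the bodies and 4.74% of the sequence between, and strong control peaks 0.0486% and 0%. The 419 control peaks over members had a median width of 1.44 kb and a highest fold enrichment of 2.41, and 1 of them was strong. The 275 inhibitor peaks had a median width of 2.90 kb, a highest fold enrichment of 4.32 and 101 strong peaks. A single peak lay over more than 1 member in 16 control and 18 inhibitor cases, so neighbouring values are partly shared. Of the members, 29 overlap another coding gene, where a peak may belong to either. Whether reads that match several copies were kept is not given in the sources used here, so values of near-identical copies are uncertain.

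Of the 50 clusters, 38 were covered more in the A939572 list, 10 more in the DMSO list and 2 had no peak over a member in either. With strong peaks, 36 were covered more in the A939572 list and 0 in the DMSO list. The A939572 list covered at least 50% of the member bodies in 13 clusters, and the DMSO list in 0. Highest in the A939572 list was the chromosome 18 cluster from Zfp397 to Zfp24, with 30.1% in the DMSO and 88.3% in the A939572 list. It holds Zfp24, a regulator of myelination (49.2% and 100%), Zfp35 (35.6% and 100%) and Zfp397 (5.25% and 61.9%). The pair Zfp668 and Zfp646 on chromosome 7 followed with 7.66% and 87.9%, under a single inhibitor peak of 24.6 kb that also filled the gap between them. Clusters on chromosome 8 had 23.997% and 76.4% (Zfp709 to Zfp961) and 26.3% and 63.7% (Zfp868 to Zfp866).

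**Figure D4:**
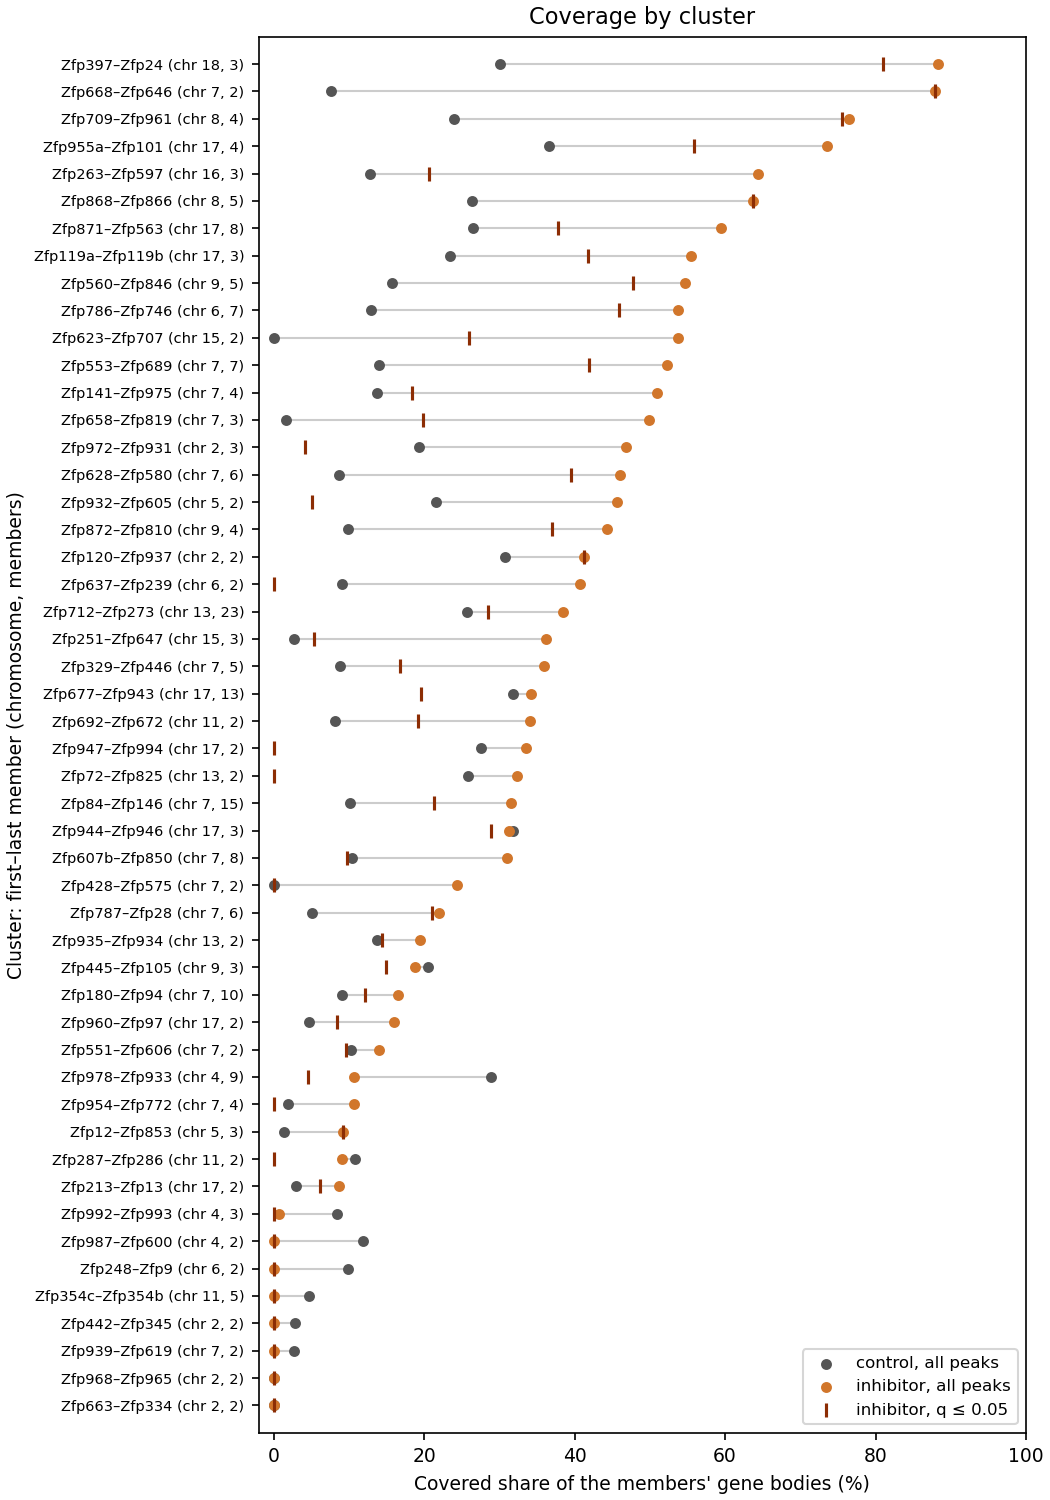
Percent of the pooled member gene bodies of each of the 50 clusters that peaks cover in the DMSO and A939572 lists, all peaks, with 1 row per cluster named by its first and last member and ticks for strong inhibitor peaks. In 38 clusters the inhibitor value is the higher one, and in 10, among them all 3 on chromosome 4, the control value is.

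The largest cluster, 23 genes from Zfp712 to Zfp273 on chromosome 13 (67038594 to 67827000), was covered over 25.7% in the DMSO and 38.4% in the A939572 list. The DMSO list marked 1 of its genes, Zfp87 (67.6%, and 99.6% in the A939572 list), and the A939572 list marked 9. Zfp748 had its highest coverage with strong peaks. Zfp708, which binds a retrotransposon of the RMER19B family, was covered over 26.4% and 22.4%, and Zfp459 over 26.5% and 0%. Differences within the array therefore ran in both directions, with 9 genes at least 25 points higher and 1 at least 25 points lower in the A939572 list.

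The 15 genes from Zfp84 to Zfp146 on chromosome 7 (29768552 to 30169775) were covered over 10.1% in the DMSO and 31.5% in the A939572 list. Zfp146, which encodes OZF, a protein made almost wholly of zinc fingers, had the highest control coverage of all members, 95.3%, and 100% in the A939572 list. Its control peak was weak (−log10 q of 0.40), and its inhibitor peak had the highest fold enrichment over a member, 4.32. Zfp84 went from 2.29% to 79.7% and Zfp382 from 11.96% to 89.9%. Zfp568, the gene of the chato mutation, which represses a placental Igf2 transcript, went from 1.72% to 22.6%. No gene of this array was at least 25 points lower in the A939572 list, and 5 were at least 25 points higher.

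On chromosome 17 the 13 genes from Zfp677 to Zfp943 (21383707 to 21994366) had nearly equal pooled values, 31.8% and 34.2%. Its genes nonetheless differed, 4 being at least 25 points higher in the A939572 list and 3 at least 25 points lower. Zfp943 went from 55.8% to 89.0%, and Zfp53 from 36.2% in weak peaks to 41.4% in 1 strong peak. Zfp229 went from 37.0% to 0%, Zfp995 from 41.6% to 3.18% and Zfp677 from 26.5% to 0%. The 10 genes from Zfp180 to Zfp94 on chromosome 7 were covered over 9.03% and 16.6%, with Zfp180 at 24.1% and 67.5% and Zfp93 at 32.9% and 0%.

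Chromosome 4 was the only one of the 13 chromosomes with members whose median difference was below 0. On chromosomes 2 (11 members) and 11 (9 members) the median difference was 0 points and the median in the A939572 list 0%. The 14 members of chromosome 4, in 3 clusters, had a median of 21.8% in the DMSO and 0.124% in the A939572 list. Their median difference was -8.48 points. None was at least 25 points higher in the A939572 list and 4 were at least 25 points lower. Over all genes of chromosome 4, 5.12% were marked in the DMSO and 25.2% in the A939572 list. The 9 genes from Zfp978 to Zfp933 (147124882 to 147849126) were covered over 28.9% and 10.6%. Zfp982 went from 36.1% to 0.899% and Zfp988 from 25.6% to 0%. Zfp979, known as Ssm1b, a gene for strain-specific methylation of a transgene, had 8.39% and 0%. In all, 4 of the 14 members had the higher value in the A939572 list. Among these, Zfp933 at the cluster's edge went from 23.97% to 42.4%, with a strong inhibitor peak. Zfp984, the only chromosome 4 member marked in the A939572 list, went from 48.6% to 52.6%, also with a strong inhibitor peak. With strong peaks alone the direction was the other one. The cluster was then covered over 0% and 4.48%, and 4 of the 14 members were higher and 0 lower in the A939572 list. In the neighbouring cluster Zfp981 went from 39.4% to 0%. Of the 14 members, 5 overlap another coding gene, among them Zfp988 and Zfp981, so some peaks count for more than 1 member. No chromosome 4 member held a strong control peak. The direction of all members together did not rest on this chromosome, since the median difference of the other 208 was 20.5 points.

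**Figure D5:**
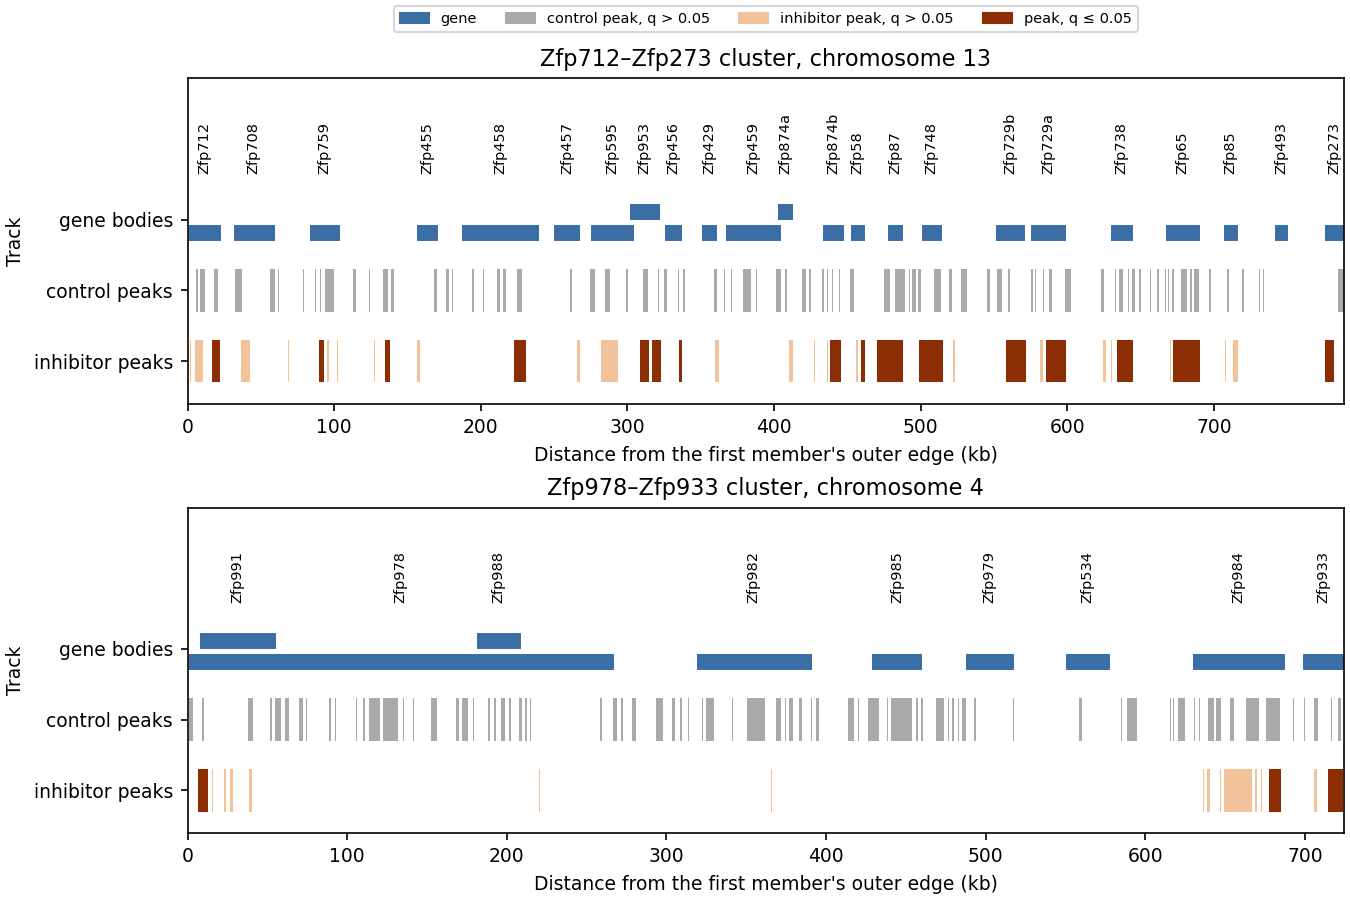
Gene bodies and peaks of the Zfp712 to Zfp273 cluster on chromosome 13 and the Zfp978 to Zfp933 cluster on chromosome 4, by distance in kb from the first member's outer edge, with strong peaks (q of at most 0.05) in dark red and overlapping gene models on separate rows. On chromosome 13 wide strong inhibitor peaks lie over single genes such as Zfp748, while on chromosome 4 the middle of the cluster holds many weak control peaks and hardly any inhibitor peak.

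The members with the largest gains were mostly covered by strong inhibitor peaks. Zfp646 (chromosome 7, 127876914 to 127885996) went from 0% to 100%, although it overlaps another coding gene. Zfp746, which encodes PARIS, a repressor known from work on Parkinson's disease (chromosome 6, 48062391 to 48086986), went from 13.2% to 92.8% under a 22.8 kb peak with a fold enrichment of 3.24. Zfp688 (chromosome 7, 127418963 to 127423241) went from 0% to 79.2%. Zfp597 (chromosome 16, 3861544 to 3884377) went from 5.36% to 84.6%, of which strong peaks covered 10.2%. Zfp975 (chromosome 7, 42660105 to 42692810) went from 11.4% to 87.8% in a weak peak alone, with a −log10 q of 1.09. Strong inhibitor peaks lay over 74 of the 94 members that were at least 25 points higher. They lay over 47.7% of all members and 35.8% of all genes. The 94 were chosen for high coverage by inhibitor peaks (27.9% or more of each body), so their higher share follows in part from that choice.

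The 11 members at least 25 points lower in the A939572 list held no strong peak in either list. They are Zfp985, Zfp981, Zfp988 and Zfp982 on chromosome 4, Zfp995, Zfp229 and Zfp677 on chromosome 17, Zfp72 and Zfp459 on chromosome 13, Zfp93 on chromosome 7 and Zfp964 on chromosome 8. Their control coverage was 25.6% to 65.1%, with a highest −log10 q of 0.20. A strong control peak lay over only 1 of all 222 members. Of the 11, 8 had no inhibitor peak at all, which follows in part from how they were chosen. Inside a cluster rather than at its edge lay 9 of the 11, against 122 of all 222 members. The bodies of the 11 were longer (median 28.5 kb) than those of the 94 (15.2 kb) or of all members (15.8 kb). The promoters of the 11 held fewer CpG dinucleotides (median 8) than those of the 94 (14) or of all members (11). Zfp72 (33.0% and 2.83%) lies beside Zfp825, which went from 16.0% to 73.1% by a weak peak, so neighbours in a pair could differ in direction. Zfp964 went from 31.5% to 0% in a cluster of chromosome 8 in which 3 of the other genes were at least 25 points higher.

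Of the 10 members marked in the DMSO list, all by weak peaks, most were covered further in the A939572 list. Besides Zfp146, Zfp87, Zfp943 and Zfp985, they were Zfp472 (63.1% and 100%), Zfp120 (59.2% and 94.4%), Zfp81 (55.3% and 95.4%), Zfp101 (54.4% and 63.6%), Zfp871 (53.3% and 100%) and Zfp54 (53.0% and 49.3%). Of these 10, 6 lie on chromosome 17. Genes with a known retroelement target differed in their values. Zfp809, which silences murine leukaemia virus type proviruses in embryonic cells (chromosome 9, 22225667 to 22254117), went from 23.3% to 78.0% with a strong inhibitor peak, and it overlaps another coding gene. Zfp932 went from 31.4% to 66.4% by a weak peak. Zfp445, a regulator of genomic imprinting, had 27.4% and 30.3%.

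Marked shares were similar at the edge and inside of clusters and in large and small ones. The A939572 list marked 35 of 100 members at the edge of a cluster (35.0%) and 38 of 122 inside (31.1%). In clusters of 5 or more genes it marked 41 of 132 (31.1%), and in smaller ones 32 of 90 (35.6%). Of 46 other coding genes that overlap the cluster spans, the DMSO list marked 4 (8.70%, against 5.73% of all genes). The A939572 list marked 12 of them (26.1%), close to the 27.0% of all genes.

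Genes listed for KRAB zinc finger repression and related chromatin regulation were covered more in the A939572 list as well. Of 25 such genes, 2 of them on the X chromosome, the DMSO list marked 4 and the A939572 list 22. Over all autosomal coding genes these shares were 5.73% and 27.0%. The inhibitor value was at least 25 points higher for 23 (31.0% of all genes) and at least 25 points lower for 0 (3.24%). The median difference was 50.4 points, and 0 points over all genes. With strong peaks the lists marked 1 and 16 (1.38% and 20.3% of all genes). Of the 25, 25 were then at least 25 points higher in the A939572 list, against 27.2% of all genes. Trim28, the co-repressor that KRAB domains bind, went from 32.9% to 95.8%, with strong peaks in both lists. Setdb1, the H3K9 methyltransferase of the complex, went from 15.2% to 46.4%. Daxx, a histone H3.3 chaperone, went from 0% to 100%, and Cbx1, which encodes an HP1 protein, from 39.5% to 100%. The list was not matched to the members in any respect.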

How the data were processed

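Both H3K79me2 ChIP libraries came as broad peak lists called separately per library, and the inputs are not analysed here. Per the submitters' processing notes, BWA, MACS2 2.1.0 and mm10 were used, with no roles stated. The sources used here give no peak calling options. The deposited columns are a score (the whole part of 10 times −log10 q), a fold enrichment (the authors' ratio to background), and the −log10 of p and of q. They were used only to filter or describe peaks within a list, and the depth is unknown. Peaks were merged and intersected with RefSeq gene bodies with pandas 2.3.3, numpy 2.4.6 and scipy 1.17.1 under Python 3.11.15, and the functions were tested on simulated data. Strong peaks have a q of at most 0.05. Strand and promoters came from a RefSeq promoter table holding 192 of the 222 members. Clusters are chains of members with gaps of at most 100 kb. Edge members are the first and last of a cluster.

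The members, gene lists and tests were chosen with earlier results of these data known. Genes named by rule were the 8 largest and 8 smallest differences, members with a strong control peak, the member best covered by strong peaks in each of the 5 largest clusters, and fixed genes of known function. Others were named after their values were seen. A planned count of zinc fingers per protein was not made, as no protein table was used here. Alternatives were stricter q or fold limits, the better covered 5 kb gene end, the first 5 kb, other coverage or difference limits, merging within 1 kb, non-overlapping genes, and other cluster distances.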

Additional observations from a re-analysis of the deposited data

How the results depend on the processing

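Of 67 alternative values, 39 stayed near the main value and 28 moved. Only the median difference could be called reversed, and 0 of its values were. A count could only stay or move, so a change of order between the lists was not labelled. Keeping peaks with q of at most 0.05, with a −log10 q of at least 5 or with a fold of at least 3 gave 0 members marked in the DMSO list each time and 47, 17 and 20 in the A939572 list. Members at least 25 points lower numbered 0 in each of these, and the median difference was 0 points. Members at least 25 points higher numbered 18 at a −log10 q of at least 5 (8.11%, against 13.7% of all genes). At a fold of at least 3 they numbered 21 (9.46%, against 13.3%). Both shares lay below those of all genes, whereas with all peaks the members' share lay above. Clusters covered more in the A939572 list numbered 13 and 17 under these 2 limits. At the better covered 5 kb end the lists marked 38 members (17.1%, against 14.96% of all genes) and 112 (50.5%, against 37.97%), and 25 were at least 25 points lower (11.3%, against 7.004%). Over the first 5 kb of the 192 members with a strand, 23 were marked in the DMSO list (11.98%, against 13.5%), and the median difference was 28.1 points. With any covered base 167 and 164 members were marked, the only 1 of 12 settings in which the A939572 list did not mark more, and with 80% of the body 1 (0.450%, against 1.55%) and 34 (15.3%, against 15.4%). At 50 points 41 members were higher (18.5%, against 15.8%) and 1 lower (0.450%, against 1.07%), and at 10 points 24 were lower (10.8%, against 9.55%). The members' share of lower values thus lay above that of all genes at 25 points and below it at 50. The causes were not tested. Leaving out overlapping members and shorter or longer cluster distances moved no value past its limit. Merging peaks within 1 kb gave values identical to the main ones. Restricting the DMSO list to the A939572 list's covered length only cut it from 235 to 234 Mb. These last 2 alternatives hardly changed the peaks, so that no value moved under them says little. No paired analysis was possible because each condition has 1 ChIP library. Depth is unknown, and weak control peaks carry every lower value.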

Other observations

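Short motifs chosen after the values had been seen were searched in the 192 member promoters, on both strands, and their shares are descriptions. The ETS core CCGGAAG was in 41 of them (21.4%), against 12.3% of 16456 promoters of all genes. The YY1 core AAGATGGC was in 7 (3.65%, against 3.21%), among them Zfp809. Peaks of the A939572 list marked 14 of the 41 members with the ETS core (34.1%) and 49 of the 151 without it (32.5%).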
